A study of Rattus norvegicus with 6 samples.

Results

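The 43 genes described here encode the machinery that copies DNA and the machinery that divides the cell. They were taken by gene name from a table of 31368 genes measured in rat renal tissue, with 24 assigned to replication, 17 to mitosis and 2, Ccnd1 and Ccnd2, to the D-type cyclins that start the cycle. The tissue came from wild-type male Sprague-Dawley rats, and the series places its model of chronic kidney disease (CKD) in animals of 8 weeks. There were 3 libraries from rats labelled CKD and 3 from controls labelled Sham, which share that genotype. The sources used here do not give how the disease was induced, what surgery the Sham rats had, or whether each library is a separate animal, so every p-value below reflects only how these 6 libraries vary, and that variation may be technical.

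A dividing cell first loads the ring-shaped MCM2-7 helicase onto origins of replication, then fires it in S phase with Cdc45 and the GINS complex while polymerases, the PCNA clamp and enzymes of nucleotide supply extend the new strands. Mitosis follows under the kinase CDK1 with its cyclins, the Aurora and Polo kinases, motor proteins and a checkpoint that holds chromosome separation until every chromosome is attached. Replication genes are classically transcribed by E2F factors at the G1/S boundary, and mitosis genes later, through CHR elements bound by DREAM and MuvB complexes. In the adult kidney few tubule cells cycle, and injury is known to return some of them to the cycle.

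All 43 names were found, and 42 passed the filter on low counts. The name Cdc45 stands on 2 rows. The more abundant row, at 22.3 ± 9.60 CPM in Sham and 19.9 ± 3.86 CPM in CKD (counts scaled to effective library size; mean ± SD, n = 3 per group), is described in the deposited table as claudin-5, a tight junction protein of endothelium. It was therefore set apart, and Cdc45 below is the row described as cell division control protein 45. Foxm1, a transcription factor of G2 and mitosis, had 0, 3 and 5 counts in Sham 1, 2 and 3 and 2, 2 and 3 in CKD, too few to test. Another 8 members, namely Cdc6, Gins1, Gins2, Ccnb1, Aurkb, Bub1, Bub1b and Cenpf, reached the filter's level in fewer than 3 Sham libraries and entered the test through the CKD group. Sham 2 stood apart from the other libraries in its share of mitochondrial counts, 37.9%.

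The mean level of both the replication and the mitosis genes was higher in each CKD library than in any Sham library, by little in CKD 3 for both, and most mitosis genes were far higher in CKD 1 than in the other CKD libraries. In bulk tissue, more cycling cells and more RNA per cycling cell cannot be told apart. The median log2 fold change (CKD minus Sham) was 0.57 over the 24 replication members and 1.17 over the 16 tested mitosis members, against -0.01 over all 15371 genes tested. With no filter, which brings in Foxm1, the medians were 0.54 and 1.01, and over members that reached the filter's level in each Sham library they were 0.53 and 0.95. Without CKD 1 the replication median was 0.45 and the mitosis median 0.37, and without Sham 2 they were 0.50 and 1.36. By edgeR's quasi-likelihood test 0 of the 42 members passed an adjusted p of 0.05, where 3.82% of all genes passed, 2.67% as higher in CKD and 1.15% as lower. At an unadjusted p under 0.05 there were 16 members, each higher in CKD, against 13.5% of all genes. Ccnb1 and Cenpf, among those 16, entered the test through the CKD group. limma-voom called 0 members (0.638% of genes called higher), and DESeq2 called 7 of 43 as higher, namely Mcm2, Mcm3, Mcm5, Mcm6, Cdc20, Cenpf and Ccnd2 (7.51% of genes called higher). Scaling by library totals only shifted the median log2 fold change over all genes by 0.42, and with it edgeR called 11 members as higher (13.3% of genes).

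**Figure D1:**
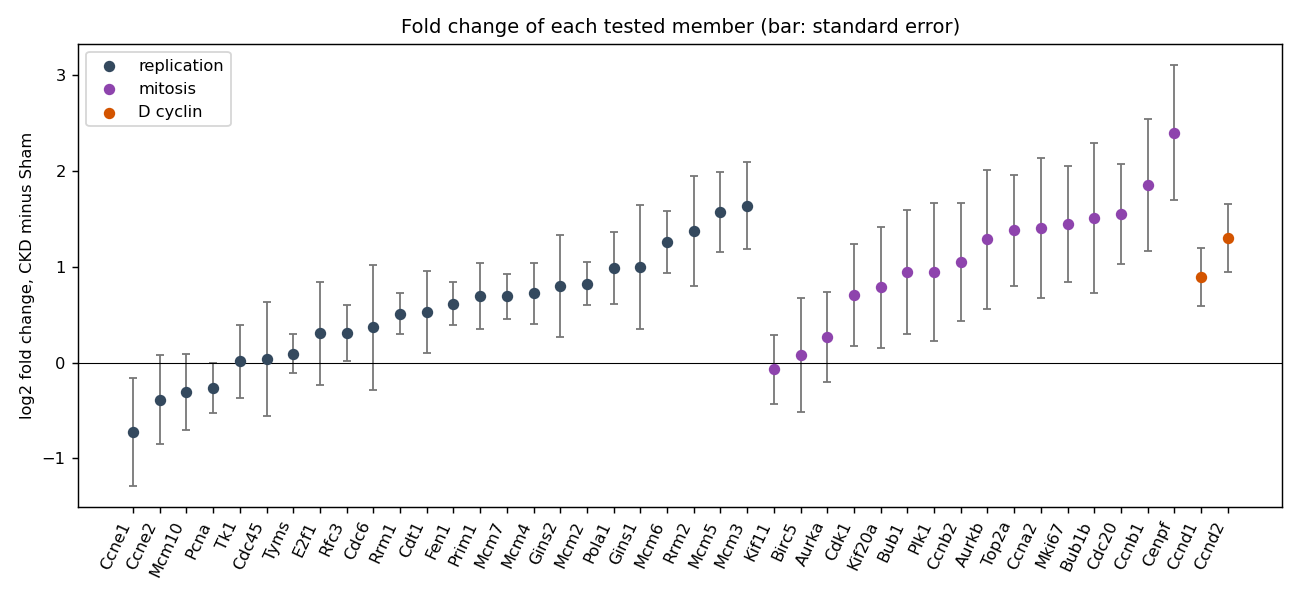
Log2 fold change of CKD against Sham for each of the 42 tested members (vertical axis), sorted within replication, mitosis and D-type cyclins; bars are standard errors of the edgeR fit. Points run from -0.72 for Ccne1 to 2.40 for Cenpf, and 37 of 42 lie above 0, against 49.5% of all genes tested. The 42 include 8 members, Cenpf among them, that entered the test through the CKD group. Of members at the filter's level in each Sham library, 17 of 21 in replication and 10 of 11 in mitosis lie above 0.

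Promoter letters differed between replication and mitosis members. RefSeq promoter entries (assembly GRCr8; 250 bases before to 50 after the gene start) matched 33 of the 43 members by symbol. An E2F motif, TTTNNCGC with each N a C or a G, was found on either strand in 10 of 19 replication promoters (52.6%), in 1 of 14 mitosis promoters (7.14%, Cdk1) and in 2.14% of all 33469 entries. The CHR motif, TTTGAA or TTCGAA on either strand, was found in 9 of 14 mitosis promoters (64.3%), in 4 of 19 replication promoters (21.1%) and in 19.7% of all entries. CCAAT, the box bound by NF-Y, stood in 13 of 19 and 11 of 14, against 37.5% of entries. A match is a description of the letters and does not show binding.

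The 150 bases before the start are shown for 4 helicase subunits, those of the ring with a whole E2F match in that stretch. Mcm4 had no entry, and the match of Mcm3 that begins at -6 runs across the gene start. Capitals mark matches to the E2F motif on either strand, and adjoining matches run together where they overlap. The stretches are those of Mcm2 (chr4:122918095-122918244, minus strand), Mcm5 (chr19:13488663-13488812, plus strand), Mcm6 (chr13:42404353-42404502, minus strand) and Mcm7 (chr12:22163179-22163328, minus strand).
Mcm2: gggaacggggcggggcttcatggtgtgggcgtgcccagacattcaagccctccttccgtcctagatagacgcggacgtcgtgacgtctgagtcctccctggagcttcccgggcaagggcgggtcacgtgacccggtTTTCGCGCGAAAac
Mcm5: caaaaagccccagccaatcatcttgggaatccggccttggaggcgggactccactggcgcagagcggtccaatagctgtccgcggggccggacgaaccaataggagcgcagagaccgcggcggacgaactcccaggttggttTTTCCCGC
Mcm6: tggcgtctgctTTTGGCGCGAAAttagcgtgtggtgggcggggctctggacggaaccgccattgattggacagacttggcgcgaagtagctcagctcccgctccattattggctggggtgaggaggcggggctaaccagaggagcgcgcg
Mcm7: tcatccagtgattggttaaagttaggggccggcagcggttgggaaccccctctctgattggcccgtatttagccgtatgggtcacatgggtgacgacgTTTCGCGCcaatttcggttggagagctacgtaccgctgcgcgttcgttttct

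The same stretch is shown for 4 mitosis genes that were highest in CKD 1, with CHR matches in capitals; that of Top2a reads on the other strand. They are Cdk1 (chr20:19265143-19265292, plus strand), Ccnb2 (chr8:79981659-79981808, minus strand), Cdc20 (chr5:137255800-137255949, minus strand) and Top2a (chr10:84473094-84473243, minus strand).
Cdk1: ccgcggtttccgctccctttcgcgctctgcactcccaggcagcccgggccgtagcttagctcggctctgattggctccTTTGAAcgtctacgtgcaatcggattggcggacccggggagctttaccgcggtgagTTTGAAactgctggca
Ccnb2: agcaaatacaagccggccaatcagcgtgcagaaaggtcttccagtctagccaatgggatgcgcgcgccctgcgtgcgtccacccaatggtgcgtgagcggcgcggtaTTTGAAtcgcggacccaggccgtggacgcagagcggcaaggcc
Cdc20: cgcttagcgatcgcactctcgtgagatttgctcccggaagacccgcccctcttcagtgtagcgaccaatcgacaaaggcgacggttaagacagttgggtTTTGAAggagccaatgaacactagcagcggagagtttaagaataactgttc
Top2a: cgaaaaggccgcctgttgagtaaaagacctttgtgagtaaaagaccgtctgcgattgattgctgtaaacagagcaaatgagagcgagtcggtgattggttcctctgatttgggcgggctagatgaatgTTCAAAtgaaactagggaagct

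**Figure D2:**
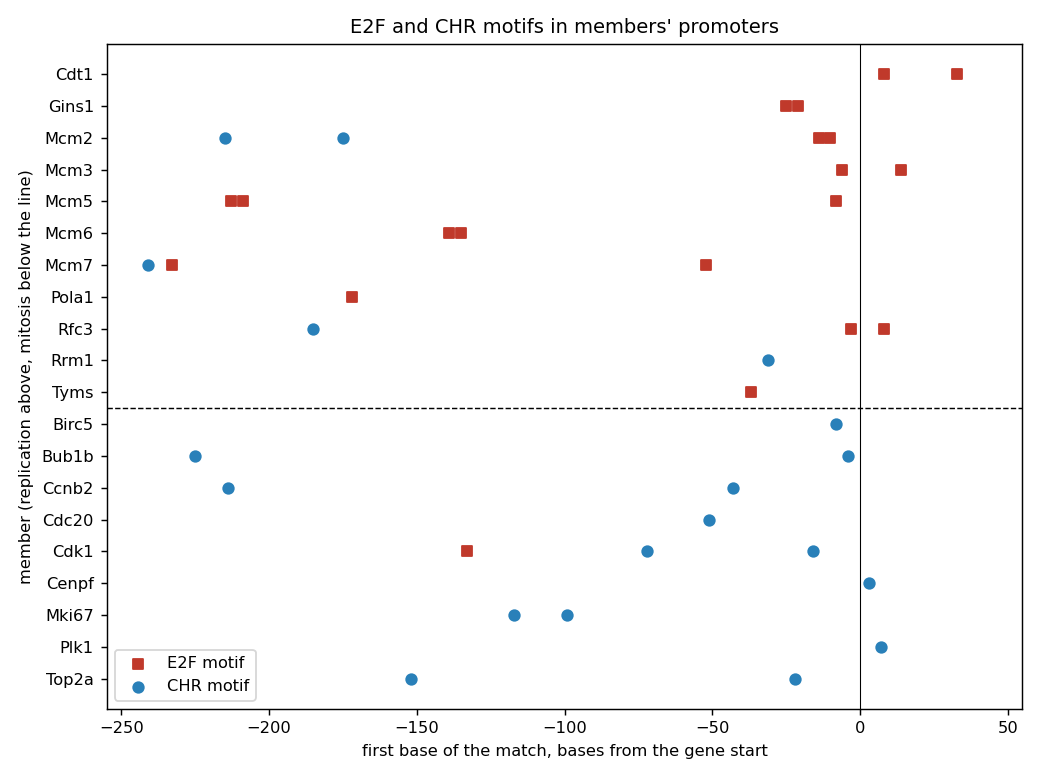
Position of each E2F (squares) and CHR (circles) match in the promoters of replication members (above the dashed line) and mitosis members (below), in bases from the gene start; only members with a match are drawn. E2F matches lie in 10 replication promoters and 1 mitosis promoter, and CHR matches in 9 mitosis and 4 replication promoters.

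Helicase and licensing genes. All 6 subunits of the MCM2-7 ring were higher in each CKD library than in any Sham library, an order that 18.8% of all tested genes showed. Mcm2 stood at 14.4, 15.8 and 12.1 CPM in Sham 1, 2 and 3 and at 28.8, 24.6 and 21.5 CPM in CKD 1, 2 and 3. Its log2 fold change was 0.82 ± 0.23 (SE; edgeR adjusted p = 0.081). Mcm7, the subunit with the highest level per length in 5 of 6 libraries, stood at 12.8, 18.8 and 13.7 CPM in Sham and 26.9, 24.4 and 22.0 CPM in CKD. For both genes the lowest CKD library was above the highest Sham library. Mcm7 overlaps Cops6 and Ap4m1 on the opposite strand, and without the strand setting of the counting their reads cannot be told apart. The same holds for Gins2 (Gse1), Ccne2 (Ints8), Ccna2 (Exosc9) and Aurka (Fam210b), whose neighbours all have more reads than they do. Gins2 also overlaps Emc8, which has more reads, on its own strand, so a strand setting would not separate their reads.

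Mcm3, Mcm5 and Mcm6 had the largest log2 fold changes of the ring. Mcm3 stood at 3.53, 2.65 and 2.60 CPM in Sham and at 13.9, 8.98 and 4.55 CPM in CKD. Mcm5 stood at 2.53, 3.70 and 3.23 CPM in Sham and at 13.7, 9.23 and 5.32 CPM in CKD. Mcm6 stood at 4.93, 4.61 and 4.29 CPM in Sham and at 14.9, 10.3 and 7.93 CPM in CKD. In all 6 subunits CKD 1 was highest and CKD 3 lowest of the CKD libraries, yet CKD 3 was still above the highest Sham library. Their log2 fold changes were 1.64 ± 0.46, 1.58 ± 0.42 and 1.26 ± 0.32 (SE; edgeR adjusted p = 0.0828, 0.0755 and 0.0705), the last being the lowest adjusted p of any member. DESeq2 gave adjusted p = 0.0132, 0.00931 and 0.0112 for the same genes. Without CKD 1 their log2 fold changes were 1.21, 1.21 and 0.99 (edgeR adjusted p = 0.307, 0.287 and 0.286). Mcm4 had means of 8.33 ± 2.15 CPM in Sham and 13.7 ± 3.44 CPM in CKD.

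Per length, the subunits of the ring were nearer to equal in CKD 1 than in Sham. These levels are CPM per kb of gene length, using the deposited lengths. The highest subunit exceeded the lowest by 5.60, 7.06 and 5.24 times in Sham 1, 2 and 3 and by 2.42, 3.18 and 4.80 times in CKD 1, 2 and 3, so the groups did not overlap, though CKD 3 lay close to Sham. Mcm2 or Mcm7 was highest in every library. The lowest was Mcm3 or Mcm5 in Sham, at 0.788 to 0.905 CPM per kb, and Mcm6 in CKD 1 and CKD 2, at 3.76 and 2.60 CPM per kb.

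**Figure D3:**
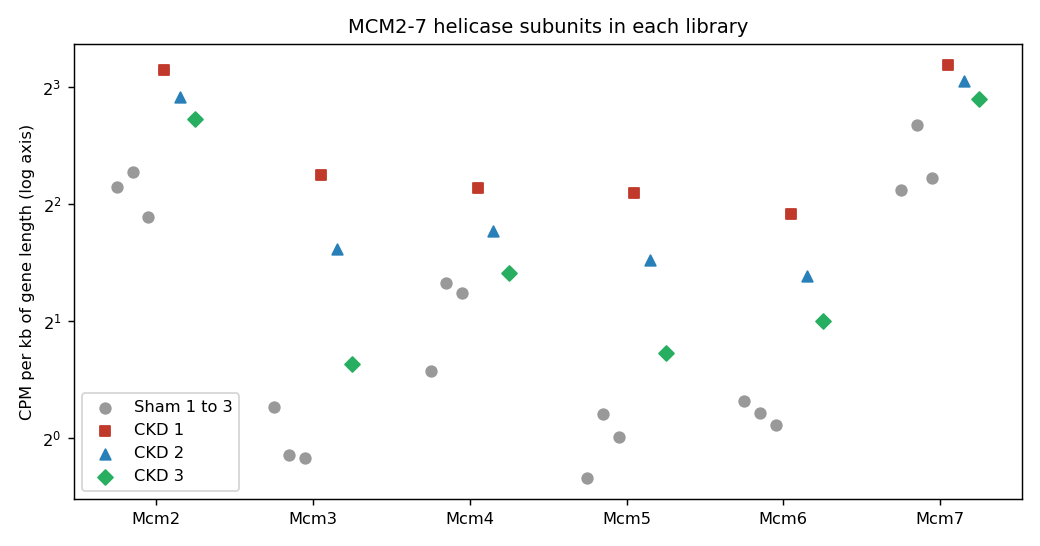
Level of each MCM2-7 subunit in each library, as CPM per kb of gene length on a log axis; grey circles are Sham 1 to 3 in order and coloured symbols are CKD 1 to 3. For each subunit the 3 CKD points lie above the 3 Sham points, by least for Mcm4 and Mcm7.

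The factors that load or fire the helicase were scarce, and their groups overlapped. Cdc6, a loader of the ring, was counted 17, 13 and 3 times in Sham and 27, 17 and 15 times in CKD. Cdt1, its partner in licensing, had means of 1.64 ± 0.489 CPM in Sham and 2.36 ± 0.274 CPM in CKD (log2 fold change 0.53 ± 0.43). Mcm10, which helps to fire origins, had a log2 fold change of -0.31 ± 0.40, and Cdc45 one of 0.04 ± 0.60. Gins1 and Gins2, subunits of the active helicase, had log2 fold changes of 1.0 ± 0.65 and 0.80 ± 0.54. Reads on Gins1 numbered 14, 6 and 3 in Sham and 30, 19 and 15 in CKD.

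Polymerase, clamp and flap genes. Pola1, the catalytic subunit of the polymerase that starts new strands, stood at 6.19, 3.63 and 7.80 CPM in Sham and 15.8, 9.58 and 9.67 CPM in CKD. Fen1, the nuclease that trims Okazaki fragments, stood at 13.3, 10.5 and 11.3 CPM in Sham and 18.2, 19.5 and 15.9 CPM in CKD. Neither gene's groups overlapped, and the log2 fold changes were 0.99 ± 0.38 and 0.61 ± 0.23 (edgeR adjusted p = 0.167 and 0.157). Prim1, the primase, and Rfc3, of the clamp loader, had log2 fold changes of 0.69 ± 0.35 and 0.31 ± 0.30, each with overlapping groups.

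Pcna was not higher in CKD. This sliding clamp of the polymerases, often stained as a marker of proliferation, stood at 56.2, 30.9 and 44.8 CPM in Sham and at 38.9, 39.8 and 30.9 CPM in CKD. Its CKD values lay within or at the edge of the Sham range, and its log2 fold change was -0.27 ± 0.26 (edgeR adjusted p = 0.572), or 0.15 with library totals alone. Pcna was the most abundant member per length in Sham, at 29.8 ± 8.58 CPM per kb, with Ccnd1 within its spread at 28.6 ± 12.2 CPM per kb.

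Nucleotide supply. Both subunits of ribonucleotide reductase, which makes deoxynucleotides, were higher in each CKD library than in any Sham library. Rrm1, the large subunit, stood at 40.6, 29.2 and 31.4 CPM in Sham and 54.9, 47.7 and 41.9 CPM in CKD. Rrm2, the small subunit whose supply is tied to S phase, stood at 2.46, 2.79 and 1.41 CPM in Sham and 10.6, 3.62 and 3.12 CPM in CKD. CKD 2 and CKD 3 exceeded the highest Sham library only slightly for Rrm2, and CKD 1 stood far above. For Rrm1, CKD 3 at 41.9 CPM was likewise only slightly above Sham 1 at 40.6 CPM. The log2 fold changes were 0.51 ± 0.22 and 1.37 ± 0.58 (edgeR adjusted p = 0.201 and 0.202), and that of Rrm2 was 0.61 without CKD 1. Per length, Rrm1 exceeded Rrm2 by 12.8, 8.15 and 17.4 times in Sham and by 4.04, 10.2 and 10.4 times in CKD, with CKD 1 lowest.

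Tyms and Tk1 supply thymidine nucleotides, by synthesis and by salvage. Tyms stood at 27.2, 31.1 and 37.4 CPM in Sham and 36.5, 33.5 and 32 CPM in CKD. Tk1 stood at 21.8, 10.5 and 9.14 CPM in Sham and 17.7, 12.3 and 11.8 CPM in CKD. Both sets of values overlapped, with log2 fold changes of 0.09 ± 0.20 and 0.01 ± 0.38 (edgeR adjusted p = 0.821 and 0.989). The sign turned without Sham 1 for Tyms (-0.05) and without Sham 2, Sham 3 or CKD 1 for Tk1 (-0.20, -0.28 and -0.19). Tk1 overlaps Afmid and Syngr2, each more abundant, on the opposite strand.

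The G1/S switch. E2f1, the activator of replication genes, and the E cyclins, partners of CDK2 at S phase entry, had overlapping groups. E2f1 stood at 2.26, 1.95 and 1.48 CPM in Sham and at 4.0, 1.24 and 1.79 CPM in CKD. Only CKD 1 lay above Sham for E2f1, whose log2 fold change of 0.30 ± 0.54 was -0.32 without CKD 1. Ccne1 stood at 1.07, 2.79 and 1.62 CPM in Sham and 1.59, 1.04 and 0.665 CPM in CKD, and Ccne2 at 2.0, 5.79 and 5.20 CPM in Sham and 3.71, 3.33 and 2.87 CPM in CKD. Their log2 fold changes were -0.72 ± 0.56 and -0.39 ± 0.46 (edgeR adjusted p = 0.471 and 0.654), and that of Ccne2 was 0.034 with library totals alone.

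D-type cyclins. Ccnd1 and Ccnd2 couple growth signals to CDK4 and CDK6 before S phase. Ccnd1 stood at 94.1, 45.6 and 49.6 CPM in Sham and at 115, 115 and 122 CPM in CKD. The CKD libraries agreed closely, Sham 1 stood apart from the other Sham libraries, and the groups did not overlap. The log2 fold change was 0.89 ± 0.30 (edgeR adjusted p = 0.128), and without Sham 1 it was 1.26 and passed (edgeR adjusted p = 0.0205; 4.96% of genes called higher). Without Sham 2 or Sham 3 it was 0.66 and 0.69 (edgeR adjusted p = 0.21 and 0.289). Ccnd2 stood at 8.73, 12.8 and 13.4 CPM in Sham and 43.6, 21.8 and 20.6 CPM in CKD. Here too the groups did not overlap, and CKD 1 was highest. The log2 fold change was 1.30 ± 0.36 (edgeR adjusted p = 0.0812), or 0.87 without CKD 1. Per length, Ccnd1 was the most abundant member in CKD, at 53.1 ± 1.66 CPM per kb.

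Mitotic kinases and cyclins. Each of these 7 genes was highest in CKD 1 of all 6 libraries. Cdk1, the kinase that drives entry into mitosis, stood at 1.73, 2.16 and 2.67 CPM in Sham and at 6.26, 1.94 and 2.51 CPM in CKD. Ccna2, a cyclin of S phase and G2, stood at 0.999, 2.44 and 1.27 CPM in Sham and at 8.67, 2.04 and 1.79 CPM in CKD. For both genes CKD 2 and CKD 3 lay inside the Sham range, and the log2 fold changes of 0.70 ± 0.54 and 1.41 ± 0.73 (edgeR adjusted p = 0.464 and 0.283) were 0.03 and 0.29 without CKD 1. Ccnb1, the mitotic cyclin, differed in that CKD 2 and CKD 3 were also above Sham. It stood at 2.53, 0.489 and 1.62 CPM in Sham and 9.78, 3.47 and 3.58 CPM in CKD, and its log2 fold change was 1.85 ± 0.69 (edgeR adjusted p = 0.158), or 1.19 without CKD 1. Ccnb2, Aurka, Aurkb and Plk1 had log2 fold changes of 1.05, 0.27, 1.29 and 0.95, each with overlapping groups.

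Checkpoint and exit. Cdc20, which activates the ubiquitin ligase that ends mitosis, stood at 3.33, 2.16 and 3.30 CPM in Sham and at 15, 4.17 and 6.55 CPM in CKD. Its groups did not overlap, and its log2 fold change of 1.55 ± 0.52 (edgeR adjusted p = 0.128) was 0.87 without CKD 1. The checkpoint kinase Bub1 was counted 9, 44 and 23 times in Sham and 108, 57 and 42 times in CKD. Bub1b, of the same checkpoint, was counted 3, 20 and 11 times in Sham and 86, 25 and 27 times in CKD. As CPM, the groups overlapped for both genes. Birc5, survivin, of the chromosomal passenger complex, had a log2 fold change of 0.08 ± 0.60, with Sham 1 its highest library.

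Proliferation markers, chromosomes and motors. Mki67, which encodes the marker Ki-67 that coats mitotic chromosomes, stood at 3.66, 7.68 and 4.78 CPM in Sham and at 29.0, 6.50 and 8.54 CPM in CKD. Top2a, the topoisomerase that untangles sister chromatids, stood at 6.46, 5.16 and 3.59 CPM in Sham and at 25.8, 6.65 and 7.16 CPM in CKD. In both genes CKD 1 stood far above all other libraries, while CKD 2 and CKD 3 were near the highest Sham library. The log2 fold changes were 1.45 ± 0.61 and 1.38 ± 0.58 (edgeR adjusted p = 0.201 and 0.20), and 0.49 and 0.45 without CKD 1. Cenpf, a kinetochore protein, was counted 10, 19 and 10 times in Sham and 199, 51 and 43 times in CKD. It had the largest log2 fold change of any member, 2.40 ± 0.71 (edgeR adjusted p = 0.094), or 1.40 without CKD 1, and it entered the test through the CKD group. The motor Kif20a had a log2 fold change of 0.78 ± 0.63. Its gene overlaps Cdc23, and its values overlapped between groups.

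Kif11, the motor that pushes spindle poles apart, stood apart from the other mitosis genes. It stood at 72.8, 36.2 and 102 CPM in Sham and at 76.9, 62.3 and 61.3 CPM in CKD, with overlapping groups. The log2 fold change was -0.07 ± 0.36, with edgeR adjusted p = 0.925. Per length its Sham mean of 14.4 ± 6.76 CPM per kb was above that of Cdk1, the next mitosis member, at 1.61 ± 0.35 CPM per kb. Its level was not lowest in Sham 1, where the other mitosis genes were lowest as a group.

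**Figure D4:**
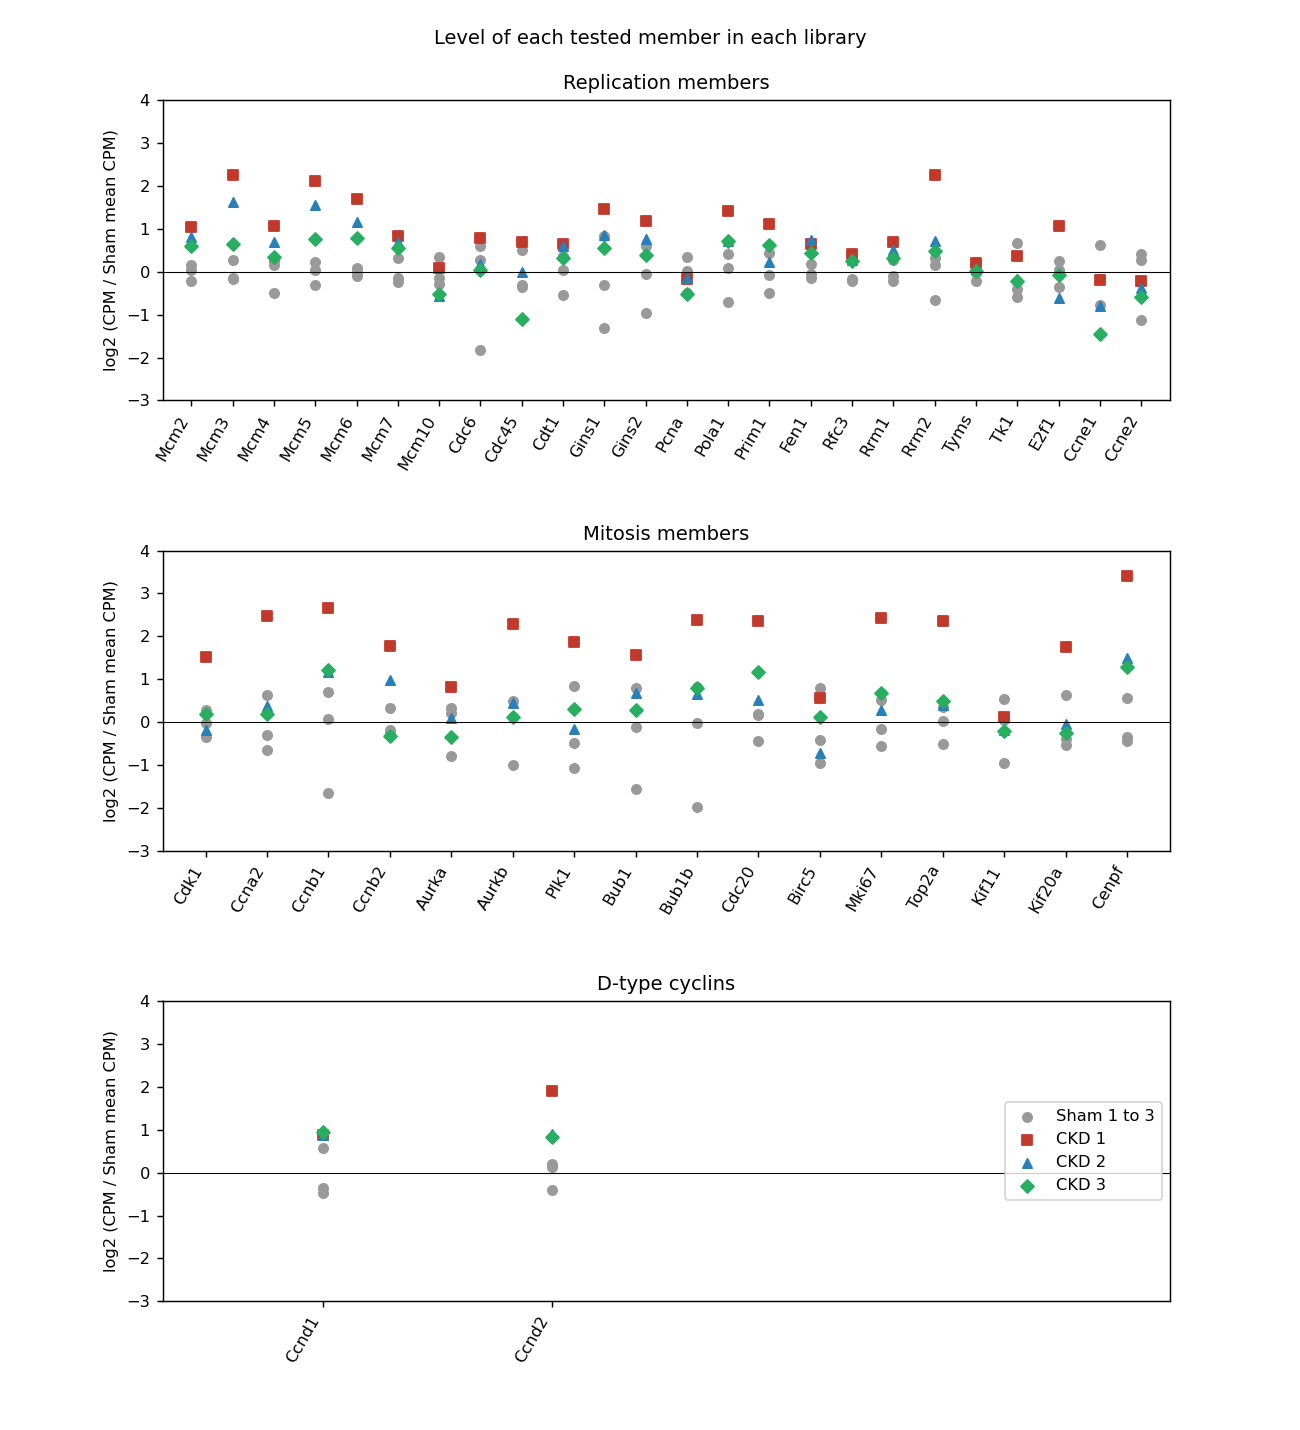
Level of each tested member in each library, as log2 of CPM over the mean CPM of the 3 Sham libraries; grey circles are Sham, the square is CKD 1, the triangle CKD 2 and the diamond CKD 3. In most mitosis genes the CKD 1 square stands alone, while in the MCM2-7 genes all 3 CKD symbols lie above Sham.

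Replication against mitosis. The groups of genes differed in how the CKD libraries were spread. CKD 1 exceeded each of CKD 2 and CKD 3 by more than 2 times in 11 of 16 tested mitosis members (7 of 11 at the filter's level in each Sham library) and in 2 of 24 replication members, Rrm2 and E2f1, against 1.57% of all genes. The median ratio of CKD 1 to the mean of CKD 2 and CKD 3 was 2.99 for mitosis, 1.52 for replication and 1.01 for all genes. Over the Sham mean, the median ratios of CKD 1, 2 and 3 were 4.29, 1.30 and 1.18 for mitosis and 1.76, 1.46 and 1.25 for replication. CKD 1 lay above every Sham library in 14 of 16 mitosis members and 18 of 24 replication members, against 31% of all genes. CKD 2 and CKD 3 each did so in 5 of 16 mitosis members, and in 13 and 11 of 24 replication members, against 29.9% and 25.9% of all genes. This split of the CKD libraries was described after their values were seen, and it was not tested. Apart from the 7 of 11, these ratios and counts include 5 mitosis and 3 replication members that entered the test through the CKD group. They therefore depend in part on that filter.

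All 3 CKD libraries lay above all 3 Sham libraries in 10 of 24 replication members and 4 of 16 mitosis members (18.8% of all genes). Over members that reached the filter's level in each Sham library these were 10 of 21 and 2 of 11, since Ccnb1 and Cenpf entered the test through CKD, where they are high. In 0 members were all CKD libraries below Sham (12.4% of all genes). Without Sham 2 the counts over all tested members were 11 and 9 (24% of genes), and with library totals alone 16 and 7 (39.9% of genes). With RLE scaling these counts fell to 9 and 3 (17% of genes). The mean log2 CPM of the replication members was 2.32, 2.33 and 2.1 in Sham 1, 2 and 3 and 3.17, 2.69 and 2.44 in CKD 1, 2 and 3. That of the mitosis members was 0.79, 1.28 and 1.07 in Sham and 2.86, 1.46 and 1.48 in CKD. On this scale both groups of genes were higher in each CKD library than in any Sham library. The excess over the highest Sham library was less than 1 SD of the Sham libraries for replication in CKD 3 (SD 0.13) and for mitosis in CKD 2 and CKD 3 (SD 0.25). Replication minus mitosis was 1.53, 1.05 and 1.03 in Sham and 0.31, 1.23 and 0.97 in CKD. CKD 1 was lowest in this difference, and CKD 2 and CKD 3 lay in or close to the Sham range.

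**Figure D5:**
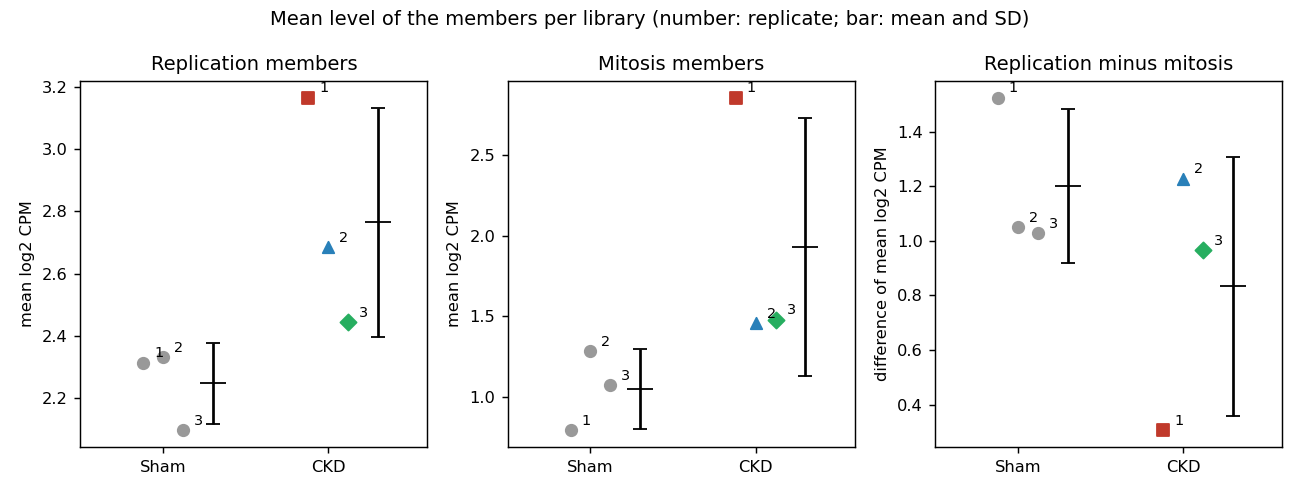
Mean log2 CPM of the 24 replication members (left) and the 17 mitosis members (middle), and their difference (right), in each library; numbers are replicates and black bars the mean and SD of 3 libraries. CKD 1 is at 2.86 for mitosis against 1.46 and 1.48 in CKD 2 and CKD 3, and its difference of 0.31 is the lowest.

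Libraries and other cell types. Totals ran from 15918035 to 17503644 counts per library, and mitochondrial genes took 14.4% and 15.3% of the counts of Sham 1 and Sham 3 and 8.83% to 10.8% of the CKD counts. Kidney markers were present: 7 of 7 proximal tubule markers were tested, and their summed level was 4638 to 16064 CPM in Sham and 8407 to 11576 CPM in CKD. Summed levels of macrophage, T cell, B and plasma cell, fibroblast and injured tubule markers were higher in each CKD library than in any Sham library. The calls of markers below are from edgeR, where 2.67% of all genes were called higher and 1.15% lower. T cell markers (7 of 8 in the table, 2 called higher) summed to 8.58 to 10.5 CPM in Sham and to 53.8, 37.6 and 24.5 CPM in CKD 1, 2 and 3. Macrophage markers (12 of 12 in the table, 3 called higher) summed to 378 to 1022 CPM in Sham and to 2719, 3160 and 1455 CPM in CKD, and B and plasma cell markers (6 of 6, 1 called higher) to 8.31 to 31.8 CPM and 102, 91.5 and 64.3 CPM. Fibroblast markers (7 of 7, 1 called higher) summed to 68.3 to 508 CPM in Sham and 1432, 1274 and 844 CPM in CKD. In 0 of the other 5 lists, neutrophil, erythroid, endothelium, loop and distal tubule and podocyte, was a marker called. Injured tubule markers (9 of 10, 5 called higher) summed to 268 to 847 CPM in Sham and 9636, 8244 and 2968 CPM in CKD. Most of that sum was Spp1, osteopontin, and without it the sums were 168 to 236 CPM in Sham and 1002, 802 and 408 CPM in CKD. Sox9 and Krt18 on that list had log2 fold changes of -0.38 and -0.87, with overlapping groups. Across all lists, 0 markers found were at 0 in every library. CKD 1 was highest in the T cell, B cell, fibroblast and injured tubule sums, and the part of these cells in the cell cycle values was not tested.

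Other genes of the pathway. Of 49 tested genes on a list of other replication factors 1 rose in edgeR over all genes, where 2.67% of all genes rose, and 0 fell. It was Dnmt1, which copies DNA methylation onto new strands, at 15.4, 20.4 and 15.5 CPM in Sham and 45.8, 37.7 and 35.2 CPM in CKD. Its log2 fold change was 1.21 ± 0.22 with edgeR adjusted p = 0.0399. Slbp, which binds histone messages made in S phase, averaged 9.82 ± 1.68 CPM in Sham and 21.1 ± 5.53 CPM in CKD, with edgeR adjusted p = 0.0703. The median log2 fold change of this list was 0.18. Of 57 tested other mitosis genes 1 rose, against the same 2.67%, the condensin subunit Smc2, at 11.2, 9.49 and 11 CPM in Sham and 30.6, 20.4 and 20.7 CPM in CKD. Its log2 fold change was 1.17 ± 0.25, with edgeR adjusted p = 0.0493. That list had a median log2 fold change of 0.91, and CKD 1 exceeded each other CKD library by more than 2 times in 32 of its 57 genes, against 1.57% of all genes. Incenp, of the chromosomal passenger complex, went the other way, at 16.5, 55.3 and 40.2 CPM in Sham and 14.2, 9.63 and 7.42 CPM in CKD (edgeR adjusted p = 0.0681). The calls of Dnmt1 and Smc2 were lost in edgeR without CKD 1, CKD 2, CKD 3, Sham 2 or Sham 3. Few genes of any kind were called in most of these settings. The share of all genes called was 0% without CKD 1 or CKD 2, 0.0127% without Sham 2, 0.0442% without Sham 3 and 2.61% without CKD 3.

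Upstream of S phase, 0 of 17 tested E2F, RB and DREAM regulators passed in edgeR. At an unadjusted p under 0.05 there were 4, each higher in CKD. Of all genes, 13.5% were higher with such a p, and 23.8% had such a p in either direction. Rbl1, the pocket protein p107, and Tfdp1, the partner of E2F, had log2 fold changes of 1.0 ± 0.36 and 0.57 ± 0.21 (edgeR adjusted p = 0.144 and 0.153), and the repressor E2f4 one of -0.02 ± 0.22. Of 10 tested G1 kinases and partners 0 passed in edgeR, where 3.82% of all genes did (3 at an unadjusted p under 0.05, against the same 23.8%). Cdk4, the partner of the D-type cyclins, stood at 43.6, 40.3 and 51.3 CPM in Sham and 79.2, 90.1 and 65.6 CPM in CKD (edgeR adjusted p = 0.0713). Myc, a growth-promoting transcription factor, and Cdc25a, the phosphatase that activates CDK2, had log2 fold changes of -1.47 ± 0.34 and -0.88 ± 0.20 (edgeR adjusted p = 0.0557 and 0.0539). Of 7 tested CDK inhibitors 1 fell in edgeR, where 1.15% of all genes fell. Cdkn1a, which encodes p21, stood at 152, 89.4 and 108 CPM in Sham and 31.6, 26.8 and 22.6 CPM in CKD. It fell by 2.11 on the log2 scale (SE 0.26; edgeR adjusted p = 0.0278), and its groups did not overlap. Without Sham 2, Sham 3, CKD 1 or CKD 2, edgeR called 0 genes of the pathway lists as lower. In those settings it called at most 0.0442% of all genes in either direction. Cdkn2b, which encodes p15, was counted 6, 1 and 2 times in Sham and 21, 52 and 27 times in CKD (edgeR adjusted p = 0.0672), and it too entered the test through the CKD group. Of 12 tested APC/C genes 0 passed in edgeR (1 at an unadjusted p under 0.05, against the same 23.8%). The median log2 fold change of the APC/C list was 0.23. Its subunits Anapc1 and Anapc13 had means of 38.5 ± 1.12 and 39.8 ± 10.1 CPM in Sham and 53.3 ± 9.89 and 27.7 ± 1.03 CPM in CKD, with edgeR adjusted p = 0.205 and 0.227.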

How the data were processed

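RNA of rat renal tissue was extracted with TRIzol and made into libraries with a VAHTS Universal V5 kit, per the labels' protocols. The authors deposited a table of unnormalized counts, with 1 column per library, matched here by sample title; 0 columns belonged to other samples. The submitters' processing notes name fastp 0.20.1, HISAT2 2.1.0, HTSeq 0.11.2 and Rnor_6.0, without roles. The build of the coordinates in the table was not settled, so none are printed. Strand setting and RNA selection are not stated. Gene lengths from the deposited table gave CPM per kb.

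Genes were kept by filterByExpr (minimum count 10, total 15), leaving 15371 of 31368. A quasi-likelihood model with group as its only term was fitted on all of these with TMM scaling (edgeR 4.0.16 and limma 3.58.1 under R 4.3.3), with Benjamini-Hochberg adjustment over all genes and a threshold of 0.05. CPM are counts over TMM-scaled library sizes, and their log2 values were taken with a prior count of 2. The standard error is the size of the log2 fold change over the square root of its F statistic. No replicates looked like one library deposited again: chi-square over degrees of freedom within groups was 30.9 to 330. The model was also run on counts simulated from the mean levels of these data and the model's own estimates of spread. That run cannot show whether the model suits these data.

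The members, lists, tests and named genes were chosen with earlier results of these data known. Per-library values are given for a list of members chosen by name, and each pathway list is shown by its genes past the threshold or the 2 with the smallest p, with Cdkn1a, Cdk4 and E2f4. Per-library values of Cenpf, Kif11, Pola1, Bub1, Bub1b, Cdc6 and Gins1 were added after they were seen. Alternatives were RLE or no composition scaling, no filter or a CPM of 1 in 3 libraries, DESeq2 1.42.0, limma-voom, a replicate block and each library left out. Promoters are from RefSeq (GRCr8); 10 members had no entry by symbol.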

Additional observations from a re-analysis of the deposited data

How the results depend on the processing

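With 3 libraries a group and a scaling that moves all genes, counts of calls depended on the method, and the causes were not tested. edgeR called 411 genes higher and 176 lower. Counts of higher genes were 2047 with library totals alone, 1356 in DESeq2, 98 in limma-voom and 0 to 789 without single libraries, and of lower genes 1084 in DESeq2, 66 in limma-voom and 0 to 922 without single libraries. Members called higher numbered 0 in edgeR, 11 with library totals alone, 7 in DESeq2 and 0 to 1 without single libraries. Pathway genes called higher, 2 in edgeR, were 1 with RLE, with no filter or with the CPM filter, 22 with library totals alone, 12 in DESeq2, 0 in limma-voom and 0 to 5 without single libraries. Those called lower, 1 in edgeR, were 2 with no filter, 6 in DESeq2 and 0 to 6 without single libraries.

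The median log2 fold change of replication members was 0.99 with library totals alone and 0.43 to 0.66 without single libraries, and that of mitosis members 0.37 (without CKD 1) to 1.54. With library totals alone, every CKD library was above every Sham library in 16 replication and 7 mitosis members (39.9% of all genes). With RLE such members numbered 9 and 3 (17% of all genes). Without single libraries they numbered 10 to 14 and 3 to 9 (20.9% to 25% of all genes). These counts were added after the data were seen. The difference of replication minus mitosis, -0.37, was -0.56 to -0.10. The log2 fold change of Tk1 was -0.046 with RLE, -0.025 with no filter, -0.038 in DESeq2 and -0.28 to 0.45 without single libraries. That of Pcna was 0.15 and of Ccne2 0.034 with library totals alone. Without single libraries Tyms ran from -0.055 to 0.15 and E2f1 from -0.32 to 0.61.

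Replicate numbers are shared between groups, and whether same-numbered libraries pair was not settled. Their deviations from the group means had correlations of -0.21, 0.0045 and -0.16. With 3 libraries a group, each centred on its own mean, these correlations depend on one another and cannot exclude pairing. With a replicate block edgeR called 4 genes higher and 6 lower, 0 of them members and 0 of them in the pathway lists in either direction, and 12 of 42 members had an unadjusted p under 0.05, against 18.7% of all genes.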
